A study of Mus musculus with 2 samples.

Results

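To find out which bone marrow progenitors are lost when cells rich in ribosomal protein transcripts are discarded, the freshly isolated (Day 0) cells of a mouse bone marrow culture series were divided at a ribosomal share of 30%. The ribosomal share is the percentage of a cell's gene UMIs (unique molecular identifiers, each standing for 1 captured transcript) that fall on symbols made of Rps or Rpl and a digit. Members were chosen by this share, in the library of the albumin-treated (control) cultures, among barcodes assigned to the Day 0 hashtag alone with 500 or more detected genes and under 15% mitochondrial UMIs. Of 1646 such cells, 1025 lay at or above 30% and are called high cells, and 621 lay below and are called low cells. They came from a control library of 13961 barcodes and a series of 31339. Since the share chose the cells, everything said of the share itself is a description.

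Ribosomal proteins assemble with ribosomal RNA into the ribosome, and their short, abundant mRNAs are among the most heavily expressed in growing cells. Blood stem cells and multipotent progenitors give rise to committed progenitors of the myeloid, erythroid, megakaryocytic and lymphoid lineages, and terminal maturation of granulocytes and red cells goes with a loss of ribosomes. Single-cell workflows often set an upper limit on the ribosomal share, together with limits on mitochondrial UMIs and on detected genes, to remove cells of doubtful quality.

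The cells were bone marrow of C57BL/6 mice aged 8 to 10 weeks, depleted of lineage-positive cells with antibodies to Ter-119, Gr-1, 7-4, B220, CD11b and CD5, and plated in GM-CSF (20 ng/ml), a cytokine under which myeloid progenitors form granulocytes, macrophages and dendritic cells. Cultures received heme bound to albumin at 300 µM, or albumin as the control, on day 3, and each of the 2 groups was 1 library that pooled 5 hashtagged cultures (days 0, 3, 4, 5 and 7). Day 0 cells preceded either addition, so the Day 0 cells of the heme library had not met heme and serve here as a second library of the same kind of cell. Whether both libraries drew on 1 marrow preparation is not stated, how many mice were pooled is not given in the sources used here, and with 1 library a group no difference between libraries or cells was tested. Intervals are exact 95% intervals for counts and cover counting error only.

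The distribution had its peak close to the limit. Over the 1646 control cells the median ribosomal share was 31% (quartiles 28.5% and 33.2%, range 0.405% to 43.3%), so that 62.3% (59.9% to 64.6%) were high. There were 147 cells between 29% and 30% and 195 between 30% and 31%, and the nearest cells on either side had shares of 29.997% and 30.003%. Within 1 point of the limit lay 20.8% of the cells, and within 2 points 39.9%. The 1827 Day 0 cells of the heme library had a median of 25.9%, and 146 of them (7.99%, 6.79% to 9.33%) were high. The limit therefore cut the control cells near their middle and the heme library in its upper tail.

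**Figure D1:**
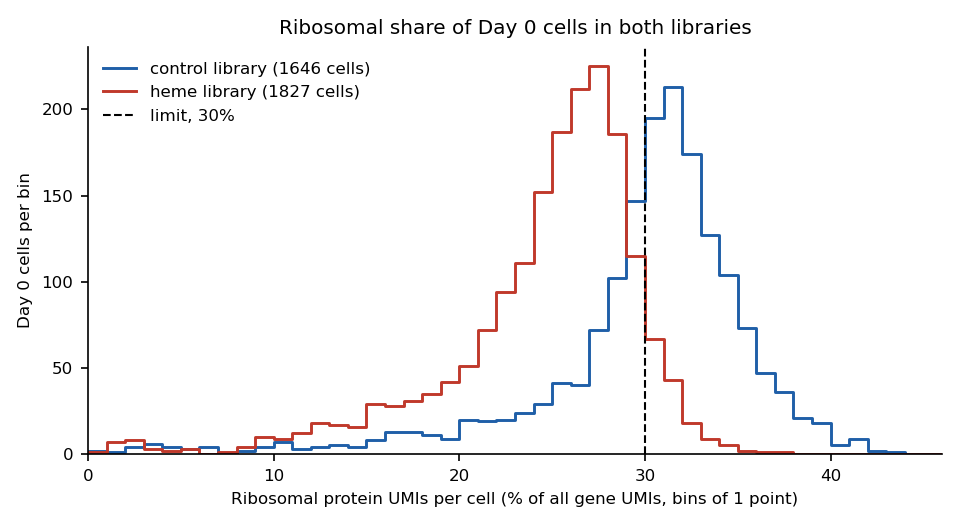
Number of Day 0 cells in bins of 1 percentage point of the ribosomal share (percent of all gene UMIs) in the control library (1646 cells) and the heme library (1827 cells), with the 30% limit dashed. The control peak lies just above the limit (median 31%) and that of the heme library below it (median 25.9%), and both have a long left tail.

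A share of this kind rests on many genes. The rule matched 97 symbols, 94 of them detected, and the 10 genes with the most UMIs held 23.5% of the matched UMIs. The matched symbols included 10 of the S6 kinase family, which are not ribosomal proteins, with 0.0628% of those UMIs. Pooled over cells, the share was 32.4% in high and 26.8% in low cells.

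By the median, high cells of the control library were somewhat deeper than low cells and close to them in mitochondrial RNA. Their median was 10658 UMIs and 2866 genes against 8472 and 2597 in low cells, and their median mitochondrial share was 4.09% against 3.91%. The upper quartile of UMIs went the other way (16449 in high against 17999 in low cells), as did the median in the heme library (9339 against 10195). After each cell was thinned to 2000 UMIs of genes outside the rule, which left out 73 high and 99 low cells, the median was 1195.5 genes in high and 1188 in low cells. The Day 0 cells spanned 743 to 53100 UMIs (median 9920), and those of the heme library had a median of 10053. Only 33 control cells exceeded 5000 genes, another limit used by the study, of which 10 were high, and 598 control cells passed both limits. The heme library had 318 cells that exceeded 5000 genes and 1366 passed both. The later days sat far from the ribosomal limit, with medians of 10.9% to 20.5% in the control library and 8.04% to 17.2% in the heme library on days 3 to 7.

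To see which lineages lay on either side, the control cells were clustered without ribosomal protein and mitochondrial genes. Clusters were given a name only where 3 or more markers of a lineage were raised, more than of any other lineage. The 22 clusters fell into 9 named classes, and 5 clusters holding 29.1% of the cells stayed unnamed. Cells of the heme library took the class of their nearest control neighbours. The preparation was a mixture of stem and progenitor cells with some mature cells. The classes differed widely in the share of cells at the limit, from 0% to 93.4%.

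The classes at the early end of the hierarchy lay mostly above the limit. Of the 318 stem and multipotent progenitor-like cells, whose 3 clusters all had Meis1 (a partner of Hox proteins) raised and of which the larger ones also had Hlf (a transcription factor of blood stem cells) and Cd34 (a surface mucin of progenitors) raised, 81.8% (77.1% to 85.8%) were high, with a median share of 32.6%. They made up 25.4% of all high cells, the highest proportion of any class. Their clusters differed: the 137 cells led by Hlf and Adgrl4, an adhesion receptor of stem and endothelial cells, were 94.2% high, those led by Apoe, H1fx and Meis1 (51 cells) were 76.5% high, and those led by Ly6d and Cd34 (130 cells) were 70.8% high (62.2% to 78.4%). The Apoe, H1fx and Meis1 cluster was named on 3 raised markers only (Meis1, Angpt1 and Adgrg1), and its erythroid list summed to 3648 CPM (counts per 1000000 UMIs of the genes outside the rule) against 848 for the stem list. The granulocyte-monocyte progenitor list summed to 9541 CPM in the cluster led by Ly6d and Cd34, against 1290 for the stem list. In the cluster led by Hlf these sums were 3298 and 3293 CPM. Hlf stood at 131 CPM in this class against 0.575 in erythroid-like cells, and Cd34 at 399.9 against 5.17. Most cells of the class would be discarded at the limit. Cd34 lies on chromosome 1 from 194938819 to 194961279 (GRCm38, plus strand) and Hlf on chromosome 11 from 90336536 to 90390895 (minus strand).

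The B lymphoid-like and granulocyte-monocyte progenitor-like classes followed. The 63 B lymphoid-like cells, marked by Dntt (terminal transferase, 1211 CPM), Ebf1 and Il7r (the interleukin 7 receptor), were 81.0% high (69.1% to 89.8%). They also held Cd34 at 308 and Siglech, a receptor of plasmacytoid dendritic cells, at 113 CPM, whereas Cd79a, a part of the B cell receptor, stood at 34.7. The class therefore carried markers of early lymphoid cells more than of mature B cells. It was named on 5 raised B lymphoid markers against 4 of the monocyte list. Its B lymphoid list summed to 1831 CPM, against 2929 for the granulocyte-monocyte progenitor list, 1744 for the monocyte and 950 for the stem list. The 161 granulocyte-monocyte progenitor (GMP)-like cells, which express the granule enzymes Mpo (8556 CPM) and Elane (13913 CPM), were 73.9% high (66.4% to 80.5%). Their interval overlapped that of both preceding classes. An unnamed cluster described below, with the same 7 GMP markers raised as 1 GMP-like cluster, was 89.7% high and is not counted here.

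Erythroid-like cells lay at the limit itself. Of 267 cells marked by Klf1, the master regulator of globin genes, and Rhd, 58.4% (52.3% to 64.4%) were high and the median share was 30.3%, with quartiles of 29.3% and 31.2%. The clusters with globin mRNA were 54.4% and 52.5% high and the one led by Crip2 and C1qtnf12 was 64.6% high. These were deep cells (median 18418 UMIs). T, NK or innate lymphoid-like cells (50) were 48.0% high (33.7% to 62.6%) and megakaryocyte-like cells (48), marked by platelet factor 4 (Pf4), were 39.6% high (25.8% to 54.7%). With both libraries clustered together, 92 control cells were megakaryocyte-like and 60.9% of them were high. No correction for library was made there, and the joint clusters ranged from 0% to 100% control cells. The T, NK or innate lymphoid-like cells were the shallowest class, with a median of 1555.5 UMIs.

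Most cells of the monocyte-like, basophil or mast cell-like and neutrophil-like classes lay below the limit. The 131 monocyte-like cells, marked by Ccr2 (the chemokine receptor of inflammatory monocytes), Klf4 and Csf1r, were 13.7% high (8.35% to 20.8%), with a median share of 25.1%. With a class per cell from marker scores, 47.9% of monocyte-like cells were high. Their clusters also had 6 and 5 dendritic cell markers raised. The 117 basophil or mast cell-like cells, marked by the proteases Mcpt8 and Prss34, were 15.4% high (9.38% to 23.2%), and their median was 21.3%. Within that class the 42 cells led by Ccl3 and Hdc held no high cell, which allows a share of up to 8.41%, while the 75 cells led by Prss34 and Mcpt8 were 24.0% high. None of the 12 neutrophil-like cells was high, and their median share was 3.71%. With so few cells the upper bound for neutrophil-like cells is 26.5%.

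Of the unnamed clusters, 1 lay furthest above the limit. It held 122 cells led by Apoe, Clec4d and Gzmb, was 93.4% high (87.5% to 97.1%) and had a median share of 35.5%. Although 5 stem markers (Meis1, Mycn, Angpt1, Hoxa9 and Adgrg1) were raised in it, none was among its 10 leading genes, so it was left without a name by a condition that was added after the clusters were seen. Klf1 stood at 102 CPM in it, and its erythroid list summed to 4167 CPM against 913 for the stem list. In addition, 4 megakaryocyte markers were raised. Apoe, Clec4d, Slc22a3 and Muc13 were leading genes both here and in the stem-like cluster led by Apoe, H1fx and Meis1. The cells of this unnamed cluster are not counted in the stem-like share or makeup. A cluster of 87 cells led by F13a1, Ly86 and Mpo, with 7 GMP and 6 monocyte markers raised, was 89.7% high (81.3% to 95.2%). It stayed unnamed because more monocyte than GMP markers were among its 10 leading genes. The clusters led by Car1, Gja1 and Mt2 (154 cells) and by Mt2, Atp1b2 and Hpn (101 cells), which expressed Klf1 at 328 and 334 CPM, were 68.2% and 62.4% high. Their erythroid lists summed to 8654 and 7886 CPM, near the 8814 of the erythroid-like cluster led by Crip2 and C1qtnf12. With both libraries clustered together, 520 control cells were erythroid-like, so the class of 267 may cover only part of the lineage. The last unnamed cluster, 15 cells led by the immunoglobulin genes Igkc, Jchain and Igha, held no high cell and had a median share of 8.42%.

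**Figure D2:**
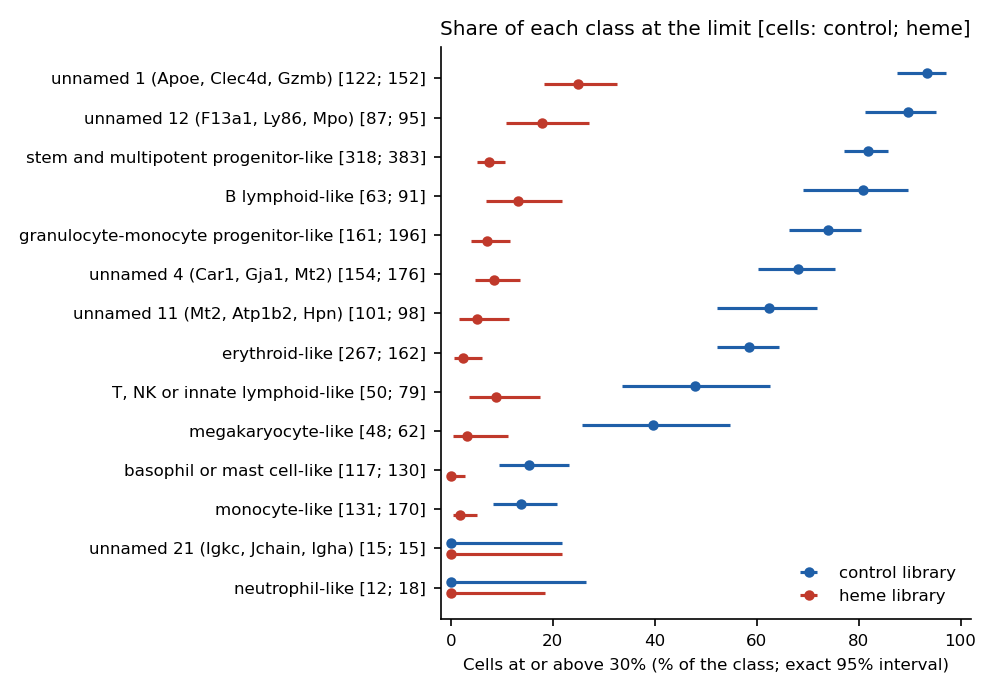
Share of each class at or above the 30% limit, in percent of its cells, with exact 95% intervals, for the control library (blue) and the heme library (red). Numbers in brackets are cells per library. Control classes run from 0% (neutrophil-like, unnamed 21) to 93.4% (unnamed 1), and every named or unnamed class with high cells was lower in the heme library.

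Removing the high cells changed the makeup of the Day 0 sample. Stem and multipotent progenitor-like cells were 19.3% (17.4% to 21.3%) of the cells before the limit and 9.34% (7.17% to 11.9%) after it. GMP-like cells went from 9.78% to 6.76% and B lymphoid-like cells from 3.83% to 1.93%. Monocyte-like cells went from 7.96% (6.70% to 9.37%) to 18.2% (15.2% to 21.5%), and basophil or mast cell-like cells from 7.11% to 15.9%. Erythroid-like cells, at 16.2% before and 17.9% after, and the cluster led by Mt2, Atp1b2 and Hpn, at 6.14% and 6.12%, kept about their proportion. After the limit the retained sample thus held more monocyte-like than stem-like cells, the other way round from the full sample. The unnamed cluster led by Apoe went from 7.41% to 1.29% and that led by F13a1 from 5.29% to 1.45%. The immunoglobulin cluster went from 0.911% to 2.42% and neutrophil-like cells from 0.729% to 1.93%.

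**Figure D3:**
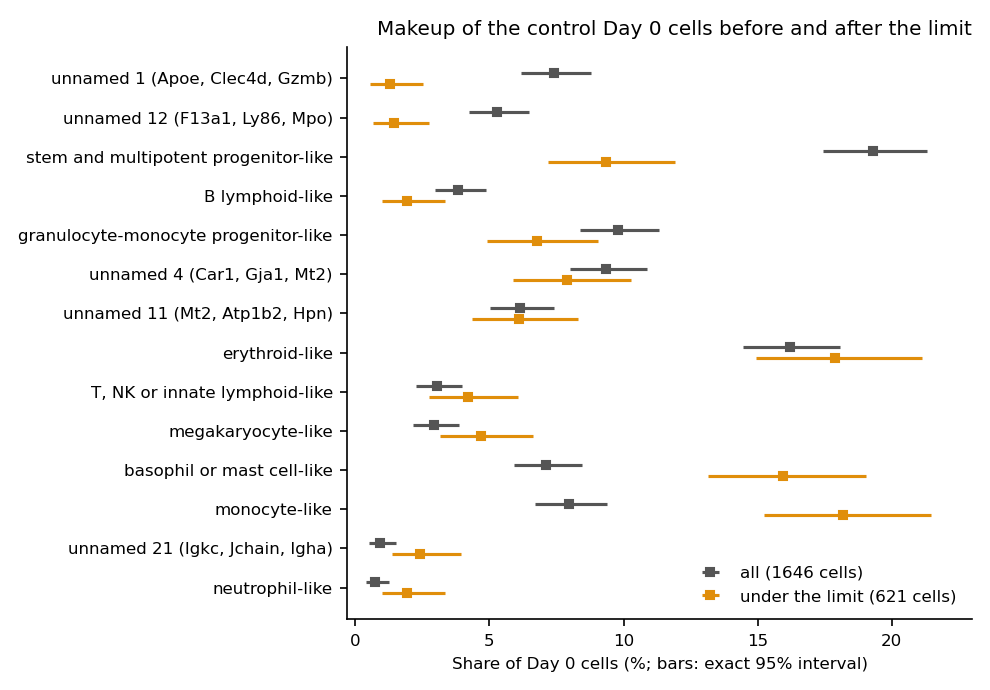
Makeup of the control Day 0 cells before (grey, 1646 cells) and after (orange, 621 cells) the limit, in percent of cells with exact 95% intervals. The stem and multipotent progenitor-like share is 19.3% before and 9.34% after, and the monocyte-like share 7.96% before and 18.2% after.

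The heme library lay at a much lower level, and part of its order followed that of the control. Its highest shares at 30% were again those of the unnamed clusters led by Apoe (25%, 18.3% to 32.7%) and by F13a1 (17.9%), followed by B lymphoid-like cells (13.2%). Monocyte-like cells stood at 1.76%, and none of 130 basophil or mast cell-like cells was high, which allows a share of up to 2.80%. This order was not kept with both libraries clustered together, in clusters that ranged from 0% to 100% control cells. In that clustering, 6.46% of 387 monocyte-like and 5.73% of 157 stem and multipotent progenitor-like cells of the heme library were high. With the classes of the control clusters, stem and multipotent progenitor-like (7.57%), GMP-like (7.14%) and T, NK or innate lymphoid-like cells (8.86%) had overlapping intervals in the heme library. Since so few cells were removed, the makeup of the heme library before and after the limit was 21% and 21.1% for stem and multipotent progenitor-like cells and 9.30% and 9.93% for monocyte-like cells.

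The offset between the libraries was not the same in every class. The median share was 7.61 points higher in the control library for T, NK or innate lymphoid-like cells, 7.42 for the Apoe-led cluster, 7.22 for B lymphoid-like and 6.48 for stem and multipotent progenitor-like cells. For GMP-like, erythroid-like and both Mt2-rich clusters it was 4.10 to 4.48 points, for megakaryocyte-like cells 6.02 and for the F13a1-led cluster 5.12, for basophil or mast cell-like cells 4.50 and for monocyte-like cells 3.48. Neutrophil-like cells and the immunoglobulin cluster went the other way, by -2.55 and -1.87 points. Depth moved with part of this pattern. The first 4 classes had median depths of 1555.5 to 7400 UMIs in the control library and the GMP-like, erythroid-like and Mt2-rich ones 14155 to 20726. Monocyte-like (5751) and basophil or mast cell-like (3301) cells were shallow with small offsets. The part of depth in these offsets was not tested.

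**Figure D4:**
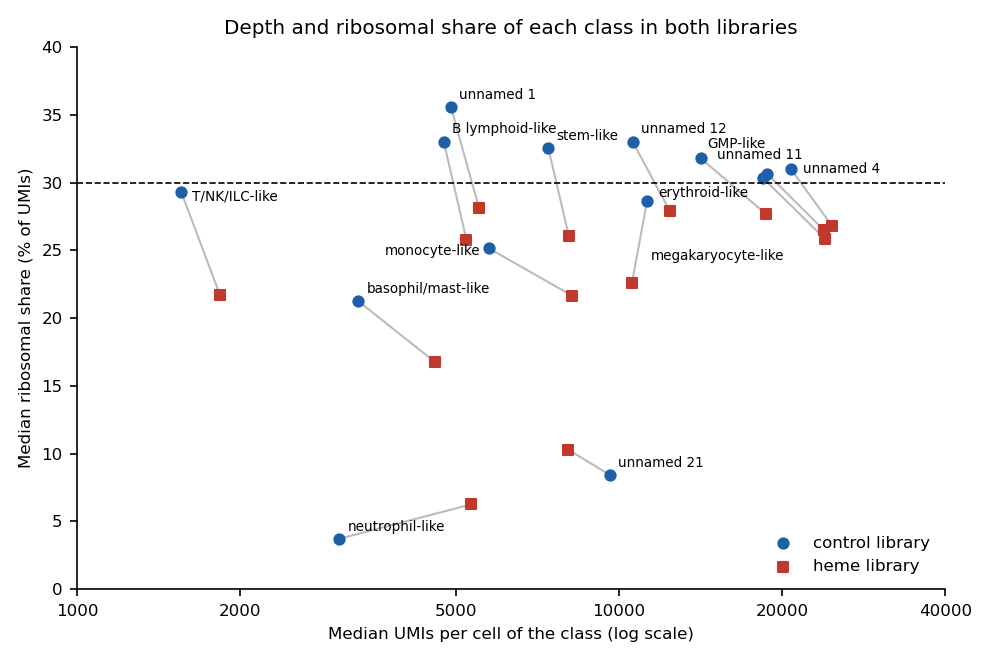
Median UMIs per cell (log axis) and median ribosomal share (percent of gene UMIs) of each class in the control (blue circles) and heme (red squares) libraries, with lines joining the same class. The control points lie higher for every class except neutrophil-like and unnamed 21, and the 30% limit (dashed) runs through the control points of the deep classes.

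Genes of the later cultures were also counted in Day 0 cells. The summed level of 10 genes of later culture days, such as the chemokine Ccl17 and the elastase Mmp12, was 126 CPM in high and 157 in low control cells and, with the heme library divided at the share described next, 425 and 593. Hmox1, heme oxygenase 1, which heme induces, stood at 2.45 and 2.94 CPM in control and at 153 and 201 in the heme library, although Day 0 cells had not met heme. By class the summed level of this list ran from 91.2 to 493 CPM in the control and from 364 to 1153 in the heme library. Whether these UMIs came from free RNA, from doublets or from wrongly assigned hashtags was not tested, nor was their part in the lower ribosomal shares of the heme library. The libraries had 112 barcodes in common, 1 of them among the Day 0 cells.

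Genes were then compared between high and low cells as CPM of their summed UMIs, so that the ribosomal proteins of the rule do not enter the total. Among 11341 genes with 20 or more UMIs, 170 (1.5%) were 2-fold or more higher and 416 (3.67%) 2-fold or more lower in high cells, and the median log2 ratio over all genes was 0.00. In the heme library the same share of cells was cut off at 24.5%, which put 1138 cells above, and 102 of 12271 genes (0.831%) were 2-fold or more higher and 1070 (8.72%) 2-fold or more lower. Since the classes differ in their ribosomal share, these ratios mix the makeup of both pools with differences inside classes, and no gene was tested. With the total of all genes in place of this one, the median of all genes moved by -0.11 on the log2 scale.

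**Figure D5:**
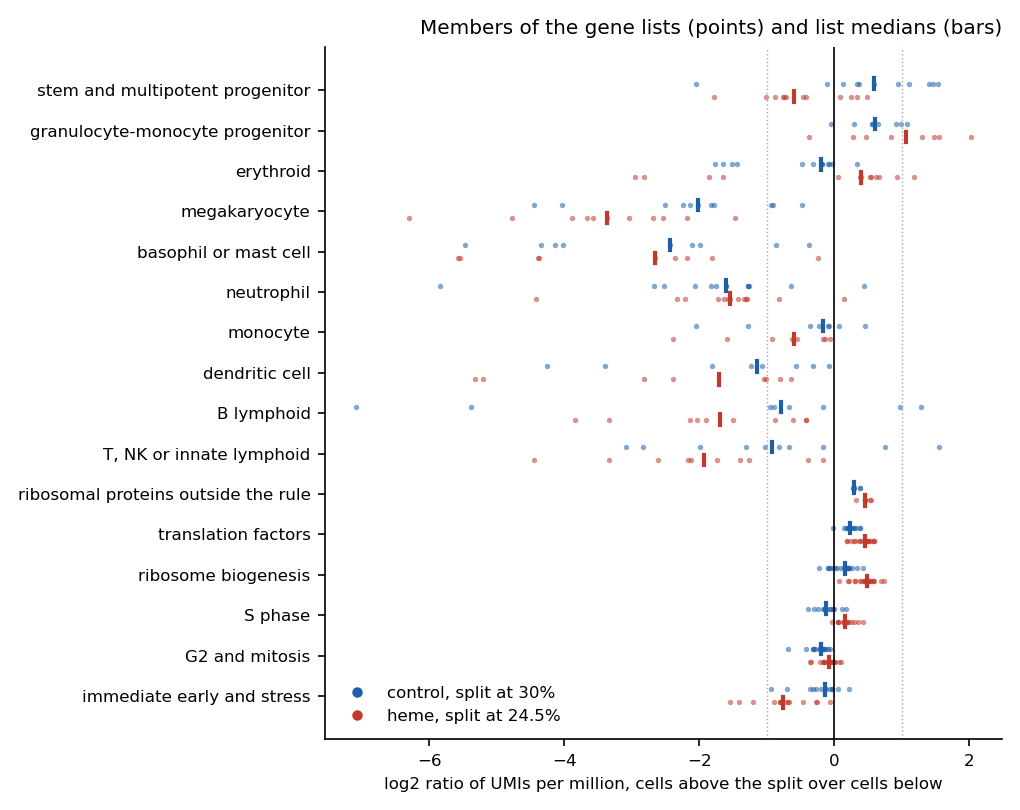
Log2 ratio of CPM, cells above over cells below the split, for every tested member of 16 gene lists (points) and their medians (bars), in the control library divided at 30% (blue) and the heme library divided at 24.5% (red). Dotted lines mark a 2-fold difference, and Vpreb3, with 0 UMIs in the high control cells, is drawn with 0.5 UMI added. Megakaryocyte and basophil or mast cell members lie far to the left in both libraries, whereas stem and erythroid medians lie on opposite sides in the libraries.

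The translation apparatus outside the rule was higher in high cells by a small and even amount. All 6 ribosomal proteins whose symbols the rule does not match were higher (median log2 ratio 0.30, none 2-fold). Rplp0, of the ribosomal stalk, stood at 8172 against 6726 CPM (ratio 1.21, 1.20 to 1.23), and Rpsa, of the small subunit, had a log2 ratio of 0.38. Of 17 translation factors 16 were higher (median 0.23). Eef1a1, which brings aminoacyl-tRNA to the ribosome, stood at 7875 against 6286 CPM, and Naca, which binds nascent chains, at 2598 against 2003. Nap1l1, a histone chaperone kept in this list because its mRNA is regulated with those of ribosomal proteins, stood at 922 against 936. Of 22 genes of ribosome biogenesis 17 were higher (median 0.16), such as the nucleolar chaperone Npm1 (5274 against 4574), and 5 were lower, such as Ubtf, a factor of RNA polymerase I (197 against 230), and nucleolin (Ncl, 2242 against 2345). The heme library gave medians of 0.45, 0.45 and 0.48, with 6 of 6, 17 of 17 and 22 of 22 members higher. The direction of the biogenesis list turned at a limit of 35% (-0.15) and in the heme library at 30% (-0.17).

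Across classes, the summed level of the ribosomal proteins outside the rule was 48296 CPM in the Apoe-led cluster and 42519 in stem and multipotent progenitor-like cells, against 36835 in monocyte-like, 28531 in basophil or mast cell-like and 5534 in neutrophil-like cells. Ribosome biogenesis genes had another order. They were at 19767 and 18057 CPM in both Mt2-rich clusters and at 13612 in erythroid-like cells, above the 10655 of stem and multipotent progenitor-like and the 5466 of monocyte-like cells. The classes with the most mRNA for making ribosomes were thus not those with the highest ribosomal share.

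Stem cell markers were higher in high control cells. Of 11 tested members 9 were higher and 4 were 2-fold or more higher, beside 1.5% of all genes. Cd34 stood at 132 against 47.8 CPM (ratio 2.77, 2.41 to 3.19) and Hlf at 27.2 against 12.6 (2.17, 1.63 to 2.91). Adgrl4 (75.3 against 25.9) and the homeobox gene Hoxa9 (28.3 against 10.6) were the others past 2-fold. Ly6a, which encodes Sca-1 of stem cells and of some lymphocytes, went the other way, at 12.4 against 51.2. The direction of this list did not recur in the heme library, where 4 of 12 were higher and the median was -0.59 against 0.59 in the control. Hlf stood there at 34.2 against 56.4 CPM and Cd34 at 149 against 107.

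GMP markers were higher in high cells of both libraries, by a median log2 ratio of 0.61 (7 of 8 members) in control and 1.06 (7 of 8) in the heme library. Mpo stood at 2029 against 1029 CPM in control (0.98) and had a ratio of 1.55 in the heme library. Elane, neutrophil elastase, stood at 2604 against 1234 (1.08) and had 2.03 in the heme library. It lies on chromosome 10 from 79886247 to 79888215 (plus strand). Cebpa, a transcription factor of granulocyte fate, was at 35.5 against 36.9 CPM. Cebpa was the only member not higher in control, and the higher members were not all granule enzymes.

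Late granule genes went the opposite way. Of 13 neutrophil markers 12 were lower in high cells and 11 were 2-fold or more lower, beside 3.67% of all genes. S100a8, a calcium-binding alarmin, stood at 633 against 1923 CPM and Camp, cathelicidin, at 59.4 against 378. The exception was Cebpe, a regulator of secondary granule genes, at 29.3 against 21.6. The 12 neutrophil-like cells, which held S100a8 at 193530 CPM, were all low cells.

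Basophil, mast cell and megakaryocyte genes showed the widest differences among the lists. All 9 tested basophil or mast cell members were lower in high cells, 7 of them 2-fold or more (median -2.44). Mcpt8 stood at 78.6 against 1275 CPM and Prss34 at 123 against 2503, with log2 ratios of -4.02 and -4.35. Gata2, which is also expressed in stem cells, had a ratio of -0.87. All 11 megakaryocyte members were lower (median -2.02), with Pf4 at 221 against 1260 CPM and Itga2b, the platelet integrin, at 18.1 against 73.5. The medians in the heme library were -2.66 and -3.37, with all 9 and all 11 lower.

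Dendritic cell genes were lower in high cells in all 8 tested cases (median -1.15), and in the heme library too (-1.72). Cd209a, a lectin of monocyte-derived dendritic cells, stood at 0.980 against 19.8 CPM and Siglech at 1.35 against 14.7. The monocyte list was divided. Ccr2 (46.9 against 114) and Klf4 (18.6 against 77.7) were 2-fold or more lower, whereas F13a1 (114 against 108) and Ly6c2 (465 against 490.0) were close to 1. F13a1 also led the unnamed cluster with 89.7% high cells and, with Ly6c2, a GMP-like cluster with 72.1%.

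The erythroid list separated early from late genes. Hemoglobin mRNAs were lower in high cells: Hbb-bs, an adult beta globin gene on chromosome 7 (103826534 to 103828096, minus strand), stood at 419 against 1432 CPM (ratio 0.293, 0.281 to 0.305), and Hba-a1, Hba-a2 and Hbb-bt had log2 ratios of -1.52, -1.66 and -1.44. The other 9 members lay between -0.48 and 0.34, among them Klf1 at 194 against 220 CPM and Gata1, the lineage's transcription factor, at 140 against 150. The globins were lower in the heme library as well (-1.65 to -2.95), while the other 9 were all higher, with Klf1 at 162 against 106 and Car1, carbonic anhydrase 1, at 1539 against 677. The globin genes have near-identical copies, so the split of UMIs among them is uncertain.

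Lymphoid genes went both ways. Dntt was higher in high cells (57.3 against 29.2 CPM), whereas Cd79a (0.490 against 22.9), Il7r (10.0 against 19.4) and Cd7 (4.90 against 42.0), a surface protein of T and NK cells, were lower. Of 8 tested B lymphoid members 6 were lower (median -0.79), and of 10 T, NK or innate lymphoid members 8 (median -0.93). At a limit of 35% both medians were above 0 (0.55 and 1.20). All 10 and all 10 were lower in the heme library, Dntt included (64.4 against 86.1).

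Cell cycle genes differed little between the pools. All 16 genes of G2 and mitosis were lower in high cells, none 2-fold (median -0.19), with the proliferation marker Mki67 at 367 against 591 CPM and Top2a at 596 against 701. Of 14 S phase genes 12 were lower (median -0.13), and this direction turned when each cell was given the same weight (0.04). The heme library had 13 of 14 S phase genes higher (0.16) and 13 of 16 of G2 and mitosis were lower (-0.08). Immediate early and stress genes, which dissociation of tissue can induce, were lower in 11 of 13 cases in control (median -0.13), with Fosb at 34.1 against 65.3 CPM, and in 14 of 14 in the heme library (-0.76), whereas their control median was 0.87 at a limit of 35%.

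Lineage regulators and receptors were divided. Myb, required for progenitor self-renewal, stood at 470 against 283 CPM, Myc, a driver of ribosome synthesis, at 163 against 102, Kit, the stem cell factor receptor, at 132 against 84.7 and Lmo2 at 477 against 364. Irf8, a regulator of monocytes and dendritic cells, stood at 208 against 298 and Csf2rb, the beta chain of the GM-CSF receptor, at 32.8 against 51.4. These 6 genes had the same direction in the heme library, with log2 ratios of 0.65, 0.43, 0.50, 0.27, -1.08 and -0.85 in the order given. Over the lists as a whole, 7 of 17 transcription factors and 5 of 12 depletion antigens and receptors were higher. The median of the transcription factors, -0.10, was 0.10 when each cell had the same weight. Macrophage genes were near absent (5 of 9 tested, 13 and 12.2 CPM in sum), as were eosinophil genes (4 of 8 tested, 42.0 and 56.9).

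The genes with the most extreme ratios were those of small classes. Of the 12 with the lowest ratios, 10 were Jchain and immunoglobulin genes. Igkc stood at 34.3 against 15937 CPM (-8.86), and 99.4% of its UMIs came from the 15 cells of the immunoglobulin cluster. Iglv1, Iglc1, Igkv15-103, Iglc3, Igkv1-135 and Igkv8-27 had 0 UMIs in high cells, against 105 to 223 in low cells (ratios of at most 0.00840 to 0.0178 at 3 counts), and Igkv8-27 was seen in 1 cell only. High cells gave 280 Igkc UMIs in all, over 209 of the 1025 cells, and the part of free RNA in these was not tested. The others were Retnlg, a resistin-like protein of neutrophils with 96.4% of its UMIs in neutrophil-like cells, and Cd200r3, a receptor of basophils and mast cells with 94.5% in that class. All 11 of these genes that the heme library tested were lower there as well.

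At the other end stood genes of stem and multipotent progenitor-like cells. The 12 highest ratios ran from 1.17 to 1.77 and included Mc5r, a melanocortin receptor (20.9 against 6.08 CPM), Clec4d, a C-type lectin (27.8 against 8.63), Spns2, a transporter of sphingosine 1-phosphate (22.2 against 7.65), the transcription factor Sox4 (251 against 99.2), the costimulatory receptor Cd27 (42.3 against 16.9) and Cd34. Stem and multipotent progenitor-like cells held 35.1% to 71.9% of the UMIs of 10 of them, the other 2 being Clec4d (36.2% in the Apoe-led cluster) and Slc4a8, a bicarbonate transporter (39.6% in GMP-like cells). In the heme library Slc4a8 alone of these 12 was past 2-fold (1.19), and Mc5r (0.05), Cd27 (0.04) and Sox4 (0.15) were near 0. Over both ends, 20 of 23 genes tested in the heme library had the same sign there, the exceptions being Clec4d, Spns2 and Dusp2. Most genes of the low end come from the immunoglobulin cluster and are not independent of each other. The share of all genes with the same sign was not counted.

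To separate the makeup of the sample from differences inside a class, high and low cells were compared within both classes that had 50 or more cells on each side. Among the 318 stem and multipotent progenitor-like cells (260 high, 58 low), 271 of 8313 genes (3.26%) were 2-fold or more higher and 343 (4.13%) 2-fold or more lower. These cells were unevenly spread over the clusters, since 38 of the 58 low cells came from the cluster led by Ly6d and Cd34 and 129 of the 260 high cells from that led by Hlf. Ly6d, a surface antigen of B-lineage-primed progenitors, was the gene with the lowest ratio, at 5.78 against 824 CPM, with UMIs in 16 low and 3 high cells. Of 7 B lymphoid genes all were lower (5 of them 2-fold or more), as were all 16 of G2 and mitosis (median -0.52). Elane (1023 against 133) and Mpo (1952 against 595) were higher, and 97.3% of the Elane UMIs came from the cluster led by Ly6d. Without the 5 cells with the most UMIs of each gene, the log2 ratio of Elane was 1.95 instead of 2.93 and that of Ly6d -5.90 instead of -7.07. The B lymphoid list was not limited to that cluster: its summed level was 352 CPM there, 529 in the cluster led by Hlf, where Dntt was a leading gene, and 36.6 in that led by Apoe, H1fx and Meis1. Genes of G2 and mitosis summed to 9144 CPM in the cluster led by Ly6d, 10462 in that led by Apoe, H1fx and Meis1 and 2094 in that led by Hlf. The part of cluster makeup in their difference between high and low cells was not tested.

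Part of these differences depended on where the class was divided. With the class split at its own median in place of 30%, a division chosen after the data were seen, Elane (-0.22) and Mpo (0.10) no longer differed by 2-fold, and the GMP list had a median of -0.00. Genes of G2 and mitosis remained lower in 16 of 16 cases (-0.38), and B lymphoid genes in 6 of 7. The same split in the heme library gave 10 of 16 and 9 of 9 lower, with Ebf1, the B cell specification factor, at 23.7 against 88.6 CPM. Hlf was at 160 against 110 CPM in control and 150 against 278 in the heme library. The ribosomal proteins outside the rule were higher in 6 of 6 cases at each split, by medians of 0.36 at 30%, 0.25 at the median and 0.32 in the heme library.

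Within the 267 erythroid-like cells (156 high, 111 low), 84 of 8252 genes (1.02%) were 2-fold or more higher and 100 (1.21%) 2-fold or more lower, and the lower ones included genes of hemoglobin synthesis. Hbb-bs stood at 1296 against 4879 CPM (-1.91), Hba-a2 at 240 against 881, Alas2, the first enzyme of erythroid heme synthesis, at 17.9 against 59.4 and Slc4a1, the band 3 anion exchanger, at 55.1 against 166. Hba-a1 and Hbb-bt had ratios of -1.44 and -1.38. Without the 5 cells with the most UMIs of each gene, Hbb-bs was at -1.16, Alas2 at -1.04, Slc4a1 at -1.14 and Hba-a2 at -0.90. The split at the class median gave -1.76 for Hbb-bs in control and -1.84 in the heme library (730 against 2623 CPM), and all 4 globin genes were 2-fold or more lower in both. In each library, then, globin mRNA lay mostly in the part of the class with the lower ribosomal share.

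The genes that were highest in high erythroid-like cells came from few cells. Elane (285 against 26.6 CPM), Ctsg, Mpo, Prtn3 and Plac8 had log2 ratios of 1.32 to 3.40, and 5 cells held 54.6% to 86.8% of their UMIs. Elane had a UMI in 35 of 156 high and 31 of 111 low cells. Without those 5 cells the ratios were -0.35 for Elane, 0.62 for Ctsg, -0.03 for Mpo, 0.10 for Prtn3 and 0.68 for Plac8. At the class median in the heme library Elane and Mpo were both at -0.26. Prss34, the lowest, had 81.9% of its UMIs in 1 cell and was at -0.46 without its top 5. The ribosomal proteins outside the rule were higher in 6 of 6 cases (median 0.16), S phase genes lower in 13 of 14 (-0.18) and genes of G2 and mitosis lower in 12 of 16 (-0.09), the last being higher in 13 of 16 at the class median of the heme library.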

How the data were processed

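What the authors deposited are unnormalized counts of UMIs for each gene in each barcode. They come from Cell Ranger, version 4.0.0 in the submitters' processing notes and 5.0.0 in the matrix headers. Those notes also name GRCm38.p6 and Seurat 3.2.3, with whose HTODemux function the hashtag calls were made. These calls were used as they stand and were the only treatment of doublets. The study's methods word the mitochondrial and ribosomal limits as lower limits, and both were read as upper limits. Of 1716 Day 0 singlets, 61 had under 500 genes and 9 more had 15% or more mitochondrial UMIs, which left 1646 cells and 19049621 UMIs. In the heme library 1877 singlets left 1827 cells and 24917927 UMIs.

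Cells were clustered in scanpy 1.11.5 (2000 variable genes, 15 principal components, 15 neighbours, Leiden at resolution 1 with igraph 0.11.9) under Python 3.11.15, without ribosomal protein and mitochondrial genes. A cluster was named where 3 or more markers of a list were raised (2-fold, in 10% or more of its cells), more than of any other list. A condition added after the clusters were seen was that 1 or more of them was among its 10 leading genes. In addition, no other list could have more members among those 10 genes. Ratios of summed UMIs and exact Poisson and Clopper-Pearson intervals used scipy 1.17.1 and numpy 2.4.6, with 0.5 UMI added to each sum for the log2 ratio, and called means 2-fold or more. TMM factors came from edgeR 4.0.16 in R 4.3.3, and plots from matplotlib 3.10.9. The steps were tested on simulated data. The genes named are members of the lists and, among genes with 100 or more UMIs and 20 or more CPM in 1 pool, the 12 highest and 12 lowest ratios (5 and 5 within a class). Genes outside these lists are named only as leaders of clusters. Members, lists and limits were chosen with earlier results of these data known. The list of snoRNA host genes could not be used, since none of its 8 symbols was among the 26124 genes, and no stroma or endothelium gene reached 20 UMIs in the control cells. Coordinates come from GENCODE M21 on GRCm38.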

Additional observations from a re-analysis of the deposited data

Results flagged for a closer look

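Cells outside the Day 0 singlets of the control library, which enter no comparison here, also reached the 30% limit. The shares were 0.527% on day 3, 0.615% on day 5 and 4.69% on day 7, 2.41% of barcodes with several hashtags and 24.6% (99 of 402) of barcodes with no hashtag. Each was above that of the same barcodes in the heme library, which ranged from 0.0513% to 0.144% for days 3, 5 and 7 and for several hashtags and was 7.17% for barcodes with no hashtag. Whether barcodes with no hashtag include Day 0 cells was not tested.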

How the results depend on the processing

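Among named classes, the order of the shares rested on the limit and on the naming of cells, and the cause of each move below was not tested beyond what its setting fixes. The 62.3% of high cells was 86.7% at a limit of 25%, 12.9% at 35%, 80.8% with all cytosolic ribosomal proteins counted and 65.2% among cells with 1000 or more genes. At limits of 25% and 35% the shares were 95.2% and 28.6% for B lymphoid-like, 84.0% and 18.0% for T, NK or innate lymphoid-like, 28.2% and 2.56% for basophil or mast cell-like, 98.5% and 0.375% for erythroid-like, 97.5% and 7.45% for GMP-like, 52.7% and 0% for monocyte-like and 95.3% and 21.4% for stem and multipotent progenitor-like cells. With all cytosolic ribosomal proteins they were 95.2% (B lymphoid-like), 66.0% (T, NK or innate lymphoid-like), 93.6% (erythroid-like), 95% (GMP-like), 32.8% (monocyte-like) and 90.3% (stem-like). With 1000 or more genes, T, NK or innate lymphoid-like cells were at 83.3% and basophil or mast cell-like cells at 24.0%. GMP-like cells were 81.4% high at resolution 0.5. With both libraries clustered together, 11 cells remained B lymphoid-like with 0% high, and stem-like cells were 87.5% high. These joint clusters ranged from 0% to 100% control cells. With a class per cell from marker scores, where 7.65% of cells lay within 0.1 of another class, the shares were 58.3% (B lymphoid), 23.8% (basophil or mast cell), 64.8% (erythroid), 83.5% (GMP), 47.9% (monocyte) and 87.3% (stem). At resolutions 0.5 and 2 and with 30 components no cluster was named B lymphoid-like, so that this class was 0% after the limit. After the limit, T, NK or innate lymphoid-like cells 2.09% at resolution 2 and 2.25% with joint clustering, erythroid-like cells 31.2% with joint clustering and 29.95% with scores, and stem-like cells 4.51%, 6.12% and 3.70% at resolution 2, with joint clustering and with scores.

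Genes 2-fold or more higher and lower, 170 and 416, were 462 and 689 with each cell given the same weight, 36 and 139 with 100 or more UMIs required, 800 and 1771 with 1 or more, 2210 and 1702 at 25%, 1236 and 771 at 35%, 477 and 695 in the heme library at 30%, and 102 and 1070 there at 24.5%. Within stem-like cells, 271 and 343 were 96 and 180 at the class median, and 82 and 216 there in the heme library, both chosen after seeing the data. At 24.5% in the heme library, Clec4d (-0.23), Spns2 (-0.10) and Dusp2 (-0.14) had the opposite sign. TMM factors gave 178 and 409, and the 5000-gene limit 171 and 442. Of the values for single genes and lists, 163 moved by more than their counting interval (or 1.5 times for counts) and 281 by less, and of the shares and counts 63 and 81. The median of the ribosome biogenesis list turned at 35% (-0.15) and in the heme library at 30% (-0.17), that of T, NK or innate lymphoid genes in both (1.20 and 0.55), those of B lymphoid (0.55) and immediate early genes (0.87) at 35%, and those of erythroid (3.36), S phase (0.86) and G2 and mitosis genes (0.09) at 25%. The medians of transcription factors (-0.10), receptors (-0.06), macrophage (-0.10) and later culture genes (-0.03), near 0, also turned at 35% (0.30, 0.59, 0.15 and 0.62). No paired analysis was possible because the groups hold 1 library each.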
